A study of Mus musculus with 2 samples.

Results

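The core circadian clock genes were examined in single nuclei of the mouse brain after subarachnoid haemorrhage (SAH), a bleed into the space around the brain. The set was 10 genes (Clock, Arntl, Per1, Per2, Per3, Cry1, Cry2, Nr1d1, Nr1d2 and Dbp), found by symbol among the 32285 genes counted. Each symbol matched 1 gene. The data were 2 libraries of single nuclei, 1 named Normal and 1 from SAH mice killed 12 h after a puncture of a vessel from within. Each library pooled tissue from 3 male mice, given as 6 to 8 weeks old in the labels, and the methods of the study give the strain as C57BL/6J and an older age. Tissue ran along the bled side of the brain from 2.34 mm before to 2.18 mm behind bregma, from the medial prefrontal cortex to the centrolateral thalamus. The labels call the control mice normal while the study writes of sham surgery, so whether the control mice were operated on is not settled, and no transgene was named for either library. The SAH operation was done under isoflurane. The clock time of collection was not given in the sources used here. Clock phase, surgery, anaesthesia and injury therefore cannot be told apart in these libraries.

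The circadian clock is a loop of transcription that runs in nearly every cell. CLOCK (or its relative NPAS2) pairs with BMAL1, the product of Arntl, and the pair switches on genes that carry an E-box, among them the Per, Cry, Nr1d and Dbp genes. PER and CRY proteins then return to the nucleus and stop the pair. The REV-ERB proteins, made by Nr1d1 and Nr1d2, repress Arntl and Cry1, so transcripts of Arntl peak when those of Nr1d1 and Dbp are low. Per1 and Per2 are also switched on outside the clock, by neuronal activity through CREB and by glucocorticoid hormone, which is how light and stress reach the clock.

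Elements of this loop can be read in the start regions of the genes. RefSeq promoter windows (250 bases before to 50 after a start site, GRCm38.p6) were held for 9 of the 10 genes, Per2 being the gene without one. The E-box CACGTG was in the windows of Per1, 166 bases before the start, and Cry1, 60 bases before it, and 7.15% of 32851 windows of all genes held it. The D-box TTATGTAA, the element bound by DBP and its relatives, occurred at 205 and 158 bases before the start of Per3, against 0.938% of all windows. The core TAGGTCA of the REV-ERB and ROR element lay 31 bases after the start of Arntl, and this core or TGGGTCA was in 6.45% of all windows. The core of the CREB element, TGACG, was in windows of Per1, Cry1 and Cry2 and in 20.8% of all windows. Both strands were searched and a match is a match of letters only. The 250 bases before the start of Per1, Cry1 and Per3, and a stretch after that of Arntl, are shown with the E-box, D-box or REV-ERB core in capitals, because these genes went different ways in the 2 libraries.
Per1, E-box, chr11:69098699-69098948, plus strand: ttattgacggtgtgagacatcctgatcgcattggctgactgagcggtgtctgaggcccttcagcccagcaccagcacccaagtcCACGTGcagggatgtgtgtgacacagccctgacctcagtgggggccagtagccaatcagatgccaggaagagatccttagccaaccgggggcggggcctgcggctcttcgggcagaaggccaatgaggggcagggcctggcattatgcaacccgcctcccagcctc
Cry1, E-box, chr10:85185055-85185304, minus strand: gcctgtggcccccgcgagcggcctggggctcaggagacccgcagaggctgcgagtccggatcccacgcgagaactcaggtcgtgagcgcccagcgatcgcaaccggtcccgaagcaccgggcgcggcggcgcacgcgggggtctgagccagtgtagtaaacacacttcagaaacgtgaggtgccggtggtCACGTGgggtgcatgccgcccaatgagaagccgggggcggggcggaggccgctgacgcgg
Per3, D-boxes, chr4:151044666-151044915, minus strand: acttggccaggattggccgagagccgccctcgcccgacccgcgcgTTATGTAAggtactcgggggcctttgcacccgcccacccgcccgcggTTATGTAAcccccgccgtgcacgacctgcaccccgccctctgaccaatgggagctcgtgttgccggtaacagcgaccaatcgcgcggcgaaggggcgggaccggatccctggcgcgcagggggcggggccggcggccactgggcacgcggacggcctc
Arntl, REV-ERB and ROR core, chr7:113207531-113207557, plus strand: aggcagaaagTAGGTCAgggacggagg

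The files held 12204 nuclei in the Normal and 18209 in the SAH library, with medians of 7252 and 8151 unique molecular identifiers (UMIs, 1 per captured RNA molecule) per nucleus. The study writes of more nuclei in the control than in the SAH group, the opposite order. Of the cell barcodes, 78 occurred in both libraries (0.639% of the Normal barcodes). The limits of the study on nuclei removed 71 and 29 of them. A nucleus was put in a class when its UMIs from that class's marker list passed a set share, and in no class when it passed for several. This gave 6 classes large enough to describe, named here by their marker list alone. They were excitatory (3904 Normal and 5233 SAH nuclei), thalamic (509 and 1018), inhibitory (1477 and 1817), striatal (203 and 196), oligodendrocyte (1698 and 3411) and microglia (950 and 1182) nuclei. The other 6 lists, such as astrocytes (22 and 20) and endothelial cells (9 and 8), gave too few nuclei to describe. In every class described, genes of no other list were among the 10 genes highest by fold against the other classes. This is a weak check, as nuclei that passed a second list were left out and the other classes were picked by their own lists. Marker levels were not level between libraries. The summed oligodendrocyte list in oligodendrocyte nuclei was 24169 UMIs in 1000000 (CPM) in Normal and 13830 in SAH, and the microglia list in microglia nuclei was 19627 and 11565. The striatal list within excitatory nuclei was 1236 and 709 CPM, and its part in the results was not tested. As a check of the label, haemoglobin Hbb-bs stood at 3.58 CPM in the Normal and 1.03 in the SAH library. Hmox1, the haem-degrading enzyme, had 6 UMIs in Normal and 47 in SAH microglia nuclei. The second value went with the labels of a bleed and the first against them. Both genes were in a list of 7 haemorrhage response genes. By the 1.5-fold and 50 UMI limits given below, 4 of its 5 countable genes were lower in excitatory nuclei (17.4% of all genes). It was 3 of 4 in inhibitory (18.7%), 2 of 3 in oligodendrocyte (19.1%), 1 of 2 in thalamic (16.1%) and 1 of 1 in striatal nuclei (22.4%). In microglia nuclei 1 of 2 (Hmox1) was higher and 0 lower. Whether the 2 libraries carry the right labels was not tested.

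Values are given as CPM of all UMIs of a class in a library, with a 95% exact Poisson interval, and as the log2 ratio of SAH over Normal, with a 95% interval from the binomial split of the 2 counts. With 1 library for each condition there was no test, and these intervals cover counting error only and not the spread between mice. A gene was called higher or lower at a ratio of at least 1.5-fold and at least 50 UMIs in both libraries together. Of the 60 pairs of a clock gene and a class, 55 had that many UMIs, 4 were higher and 14 lower.

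In the SAH library Per1 was lower in the 4 neuronal classes, Per2 was lower in all of them but the inhibitory (-0.44, under 1.5-fold), Nr1d1 was lower in the excitatory and inhibitory ones, and Arntl, Clock, Cry1, Cry2 and Dbp kept within 1.5-fold. In oligodendrocyte nuclei Arntl, Cry1 and Cry2 were higher and Per3 and Dbp were lower. In microglia nuclei Per1 was higher while Per3, Nr1d2 and Cry2 were lower.

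**Figure D1:**
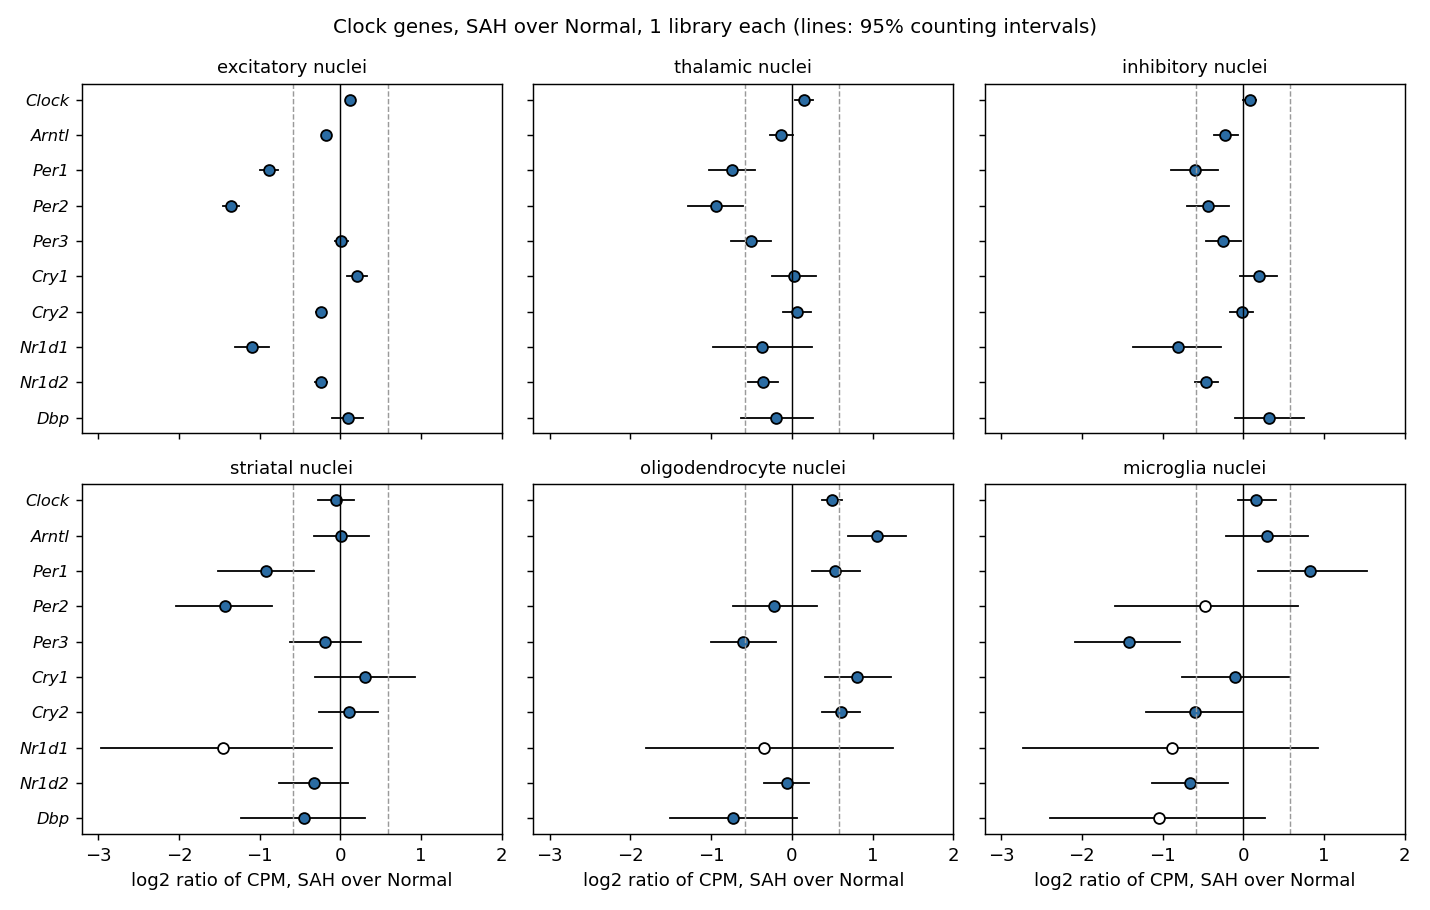
Log2 ratio of CPM, SAH over Normal (x axis), for the 10 clock genes in each of 6 classes of nuclei. Points are ratios, lines 95% counting intervals, open points have under 50 UMIs in all and dashed lines mark 1.5-fold. Per1 and Per2 lie left of 0 in the 4 neuronal classes, and Per1 lies right of 0 in oligodendrocyte (0.54) and microglia nuclei (0.83).

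These counts were read against all genes of each class. In excitatory nuclei 0 of 10 clock genes were called higher and 3 lower (Per1, Per2 and Nr1d1), where 15.8% of all genes were higher and 17.4% lower. In thalamic nuclei 0 of 10 were higher and 2 lower (Per1 and Per2), against 10.7% and 16.1% of all genes. Inhibitory nuclei also had 0 of 10 higher and 2 lower (Per1 and Nr1d1), against 9.99% and 18.7%. In striatal nuclei 2 of the 9 clock genes with enough UMIs were lower (Per1 and Per2) and 0 higher, against 22.4% and 6.68%. The neuronal counts in the last 3 classes were therefore near the share of all genes. In oligodendrocyte nuclei 3 of 9 were higher and 2 lower, against 14.2% and 19.1% of all genes, so the lower count was near its share there too. In microglia nuclei 1 of 7 was higher and 3 lower, against 15.5% and 15.6%. The median log2 ratio of all genes with at least 50 UMIs was between -0.21 and 0.00 in the 6 classes. The median over the 10 clock genes was -0.21 in excitatory, -0.27 in thalamic, -0.23 in inhibitory, -0.26 in striatal, 0.22 in oligodendrocyte and -0.53 in microglia nuclei. The clock medians were not held to 50 UMIs, so they are not of like genes with the medians of all genes. Under that limit were Nr1d1 in striatal, oligodendrocyte and microglia nuclei, and Per2 and Dbp in microglia nuclei.

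The positive limb of the loop was taken first. Clock, which makes the DNA-binding partner of BMAL1, had the most UMIs of the 10 genes, 12023 in Normal and 20192 in SAH nuclei of the 6 classes. It was within 1.5-fold everywhere. In excitatory nuclei it was 143 CPM (140 to 146) in Normal and 155 (152 to 158) in SAH, a log2 ratio of 0.12 (0.08 to 0.16). The largest ratio of Clock was in oligodendrocyte nuclei, with 174 CPM (161 to 188) in Normal and 246 (235 to 257) in SAH, or 0.50 (0.37 to 0.62). In the SAH library this level stood above that of every other class without overlap of intervals, while in the Normal library neighbouring classes overlapped all along the order, from 174 CPM in oligodendrocyte to 143 in excitatory nuclei.

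Arntl, which makes BMAL1, was near its Normal level in neurons and higher in oligodendrocytes. In excitatory nuclei it was 94.4 CPM (91.8 to 97.0) in Normal and 83.4 (81.4 to 85.4) in SAH, a log2 ratio of -0.18 (-0.23 to -0.13). The other neuronal ratios were -0.13 in thalamic, -0.22 in inhibitory and 0.01 in striatal nuclei. In oligodendrocyte nuclei Arntl was 21.1 CPM (16.8 to 26.2) in Normal and 43.7 (39.4 to 48.5) in SAH, a log2 ratio of 1.05 (0.70 to 1.42) on 81 and 364 UMIs. This was the highest ratio of any clock gene in any class. Microglia nuclei had 35.8 CPM (26.7 to 47.0) and 43.6 (35.5 to 53.1), 0.29 (-0.21 to 0.80), which counting error covers. In Normal nuclei the order of Arntl levels ran from excitatory and thalamic, which overlapped, through striatal, to inhibitory and microglia, which overlapped, and oligodendrocyte lowest. In SAH nuclei the oligodendrocyte level overlapped those of microglia and inhibitory nuclei.

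The Per genes, whose proteins form the negative limb, fell apart into Per1 and Per2 on one side and Per3 on the other. Per1 in excitatory nuclei was 25.4 CPM (24 to 26.8) in Normal and 13.7 (12.9 to 14.6) in SAH, a log2 ratio of -0.88 (-1 to -0.77). The ratio was -0.74 (-1.02 to -0.46) in thalamic, -0.60 (-0.89 to -0.31) in inhibitory and -0.92 (-1.52 to -0.33) in striatal nuclei. All 4 neuronal classes were thus lower and at least 1.5-fold so. With each nucleus thinned to 1000 UMIs, which leaves far fewer counts, Per1 was -1.24 in excitatory nuclei, -0.15 (-1.34 to 1.13) in thalamic nuclei on 10 and 18 UMIs and -0.24 (-1.10 to 0.64) in inhibitory nuclei. In oligodendrocyte nuclei Per1 went the other way, from 33.6 CPM (28.1 to 39.9) in Normal to 48.8 (44.2 to 53.8) in SAH, a log2 ratio of 0.54 (0.25 to 0.84) that was under 1.5-fold. In microglia nuclei it was 18.6 CPM (12.3 to 27.1) and 33.2 (26.1 to 41.5), 0.83 (0.18 to 1.53) on 27 and 76 UMIs. Oligodendrocyte and microglia nuclei therefore had the highest Per1 levels of the SAH library, where Normal striatal, oligodendrocyte and thalamic nuclei had overlapping levels at the top.

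Per2 had the largest ratio of the well-counted genes in excitatory nuclei. It was 40.6 CPM (38.9 to 42.3) in Normal and 15.8 (14.9 to 16.7) in SAH, a log2 ratio of -1.36 (-1.46 to -1.26) on 2155 and 1219 UMIs. In thalamic nuclei it was 21.5 CPM (18.1 to 25.4) and 11.2 (9.52 to 13.2), or -0.94 (-1.28 to -0.60). Striatal nuclei had 45.8 CPM (36.6 to 56.6) and 17.0 (11.9 to 23.6), or -1.43 (-2.03 to -0.85), on 86 and 36 UMIs. The ratio in inhibitory nuclei was -0.44 (-0.70 to -0.18), under 1.5-fold. In Normal nuclei the excitatory and striatal classes stood above the others, and in SAH nuclei the Per2 levels of all 6 classes lay between 6.98 and 17.0 CPM. Oligodendrocyte nuclei had 13 CPM in Normal and 11.2 in SAH, -0.22 (-0.73 to 0.31), and microglia had 14 and 16 UMIs, too few to call.

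Per3, a Per gene whose loss leaves the rhythm largely running, was 39.8 CPM (38.1 to 41.5) in Normal and 40.0 (38.6 to 41.5) in SAH excitatory nuclei, a log2 ratio of 0.01 (-0.07 to 0.09). It was -0.50 (-0.75 to -0.26) in thalamic, -0.25 (-0.46 to -0.03) in inhibitory and -0.19 (-0.63 to 0.25) in striatal nuclei. The glial classes were lower: 22.9 CPM (18.4 to 28.2) and 15.1 (12.6 to 18.0) in oligodendrocyte nuclei, or -0.60 (-1 to -0.19). Microglia nuclei had 38.6 CPM (29.1 to 50.1) in Normal and 14.4 (9.91 to 20.2) in SAH, or -1.42 (-2.09 to -0.78), on 56 and 33 UMIs. So Per1 and Per3 went opposite ways in both glial classes. All of Per3 (41.0 kb, mouse genome mm10, GENCODE M21) lies within the annotated span of Camta1 on the same strand, and how reads there were assigned was not stated, so its level is uncertain. Camta1 itself had log2 ratios between 0.02 and 0.44 in the 6 classes.

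**Figure D2:**
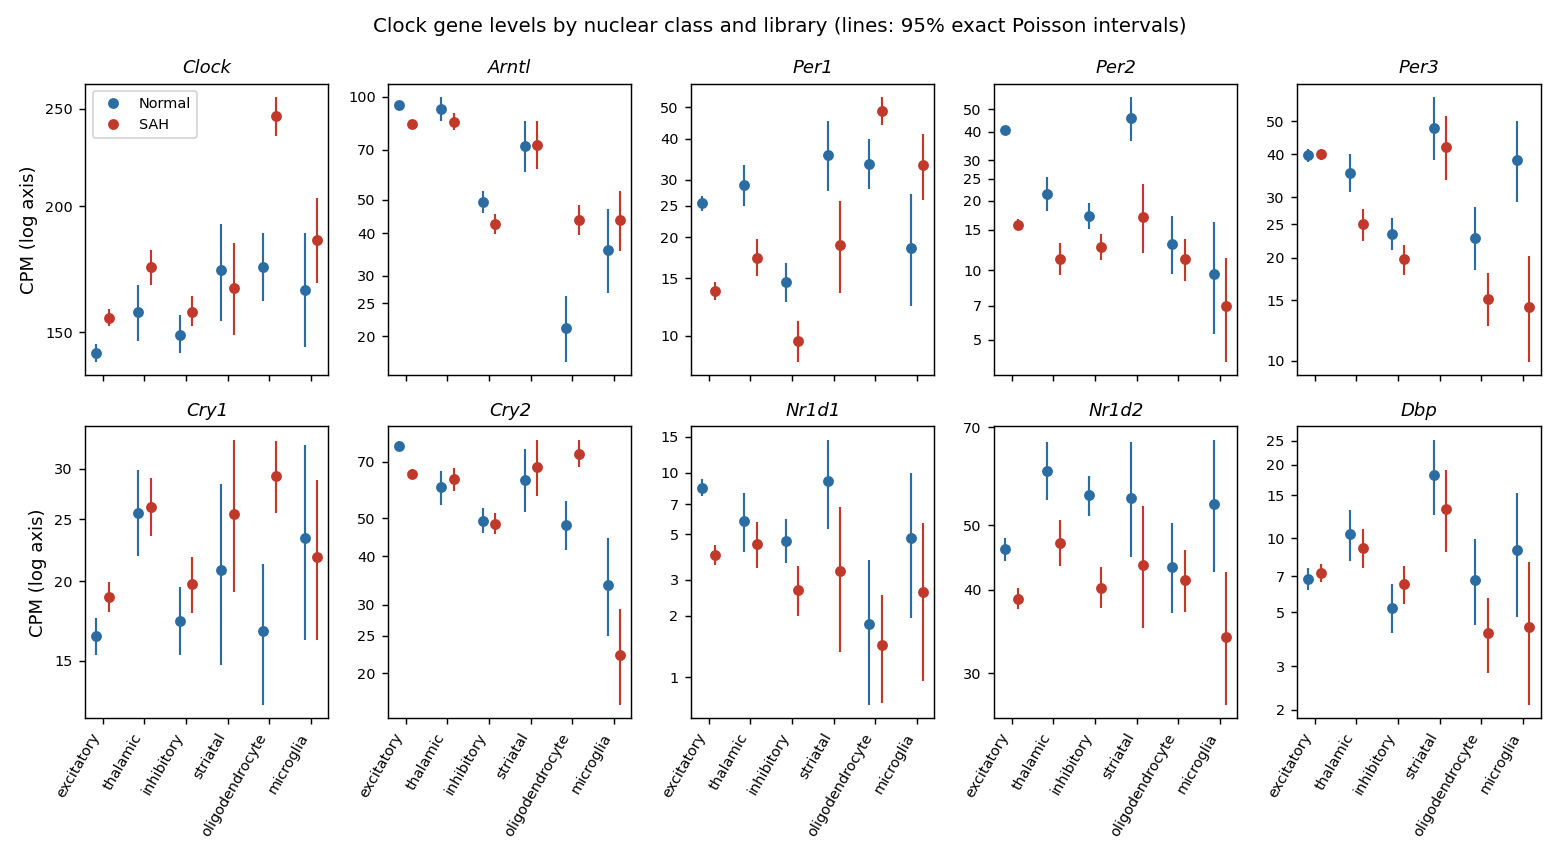
CPM on a log axis (y) of each clock gene in 6 classes of nuclei (x), Normal in blue and SAH in red, with 95% exact Poisson intervals as lines. Per2 in excitatory nuclei is 40.6 in Normal and 15.8 in SAH, and Arntl in oligodendrocyte nuclei 21.1 and 43.7; each panel has its own axis range.

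The Cry genes make the main repressors of the CLOCK and BMAL1 pair. Cry1 was 16.4 CPM (15.3 to 17.5) in Normal and 18.9 (17.9 to 19.9) in SAH excitatory nuclei, a log2 ratio of 0.20 (0.08 to 0.33). It was 0.03 to 0.30 over the 4 neuronal classes, above 0 in each. In oligodendrocyte nuclei it was 16.7 CPM (12.8 to 21.3) in Normal and 29.2 (25.6 to 33.1) in SAH, or 0.81 (0.41 to 1.23). Cry2 was 76.8 CPM (74.5 to 79.2) and 65.2 (63.5 to 67.1) in excitatory nuclei, -0.24 (-0.30 to -0.18), and between -0.02 and 0.11 in the other neuronal classes. It was higher in oligodendrocyte nuclei, at 48.2 CPM (41.5 to 55.6) and 73.3 (67.6 to 79.4), or 0.61 (0.37 to 0.85), and 0.35 in thinned nuclei. In microglia nuclei Cry2 was lower, 33.8 CPM (25 to 44.6) and 22.3 (16.6 to 29.3), or -0.60 (-1.20 to 0.00), with an interval that reached 0. Normal Cry1 levels overlapped between neighbours in the order of all 6 classes. Cry2 shares sequence with D930015M05Rik on the opposite strand, and that gene was higher in oligodendrocyte nuclei too (13 and 93 UMIs, 1.72). D930015M05Rik was above 0 in all 6 classes, at 0.97 in excitatory and 0.67 in thalamic nuclei, where Cry2 was -0.24 and 0.07. Its microglia value rested on 2 and 6 UMIs. Whether strand was used in counting was not stated, so reads of the 2 genes may not be told apart.

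The REV-ERB genes close the second loop. Nr1d1 was 8.45 CPM (7.69 to 9.27) in Normal and 3.97 (3.54 to 4.44) in SAH excitatory nuclei, a log2 ratio of -1.09 (-1.30 to -0.88) on 449 and 306 UMIs. It was -0.81 (-1.36 to -0.27) in inhibitory and -0.37 (-0.98 to 0.25) in thalamic nuclei. In thinned inhibitory nuclei it was -0.14 on 9 and 10 UMIs. Elsewhere it had under 50 UMIs, with 17 and 7 in striatal, 7 and 12 in oligodendrocyte and 7 and 6 in microglia nuclei. Its neighbour Thra, which overlaps it on the opposite strand, had log2 ratios between -0.25 and -0.09. Nr1d2, the closest relative of Nr1d1, was below 0 in all 6 classes. It was 46.0 CPM (44.2 to 47.8) in Normal and 38.8 (37.4 to 40.2) in SAH excitatory nuclei, -0.24 (-0.32 to -0.17), and -0.46 (-0.60 to -0.31) in inhibitory nuclei. In microglia nuclei Nr1d2 passed 1.5-fold, with 53.7 CPM (42.5 to 67.1) and 34.0 (26.9 to 42.5), or -0.66 (-1.13 to -0.19). In oligodendrocyte nuclei, where Arntl was higher, Nr1d2 was -0.06 (-0.34 to 0.21).

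Dbp, a transcription factor of the output and a direct E-box target with a large daily swing in many tissues, moved little in neurons. It was 6.81 CPM (6.13 to 7.55) in Normal and 7.23 (6.64 to 7.86) in SAH excitatory nuclei, a log2 ratio of 0.09 (-0.11 to 0.28). The ratio was -0.19 in thalamic, 0.32 in inhibitory and -0.45 in striatal nuclei, and each interval held 0. In oligodendrocyte nuclei it was 6.77 CPM (4.42 to 9.92) and 4.09 (2.83 to 5.71), or -0.73 (-1.51 to 0.07), called lower on 26 and 34 UMIs with an interval that held 0. Dbp, 5.12 kb long, was the shortest of the 10 genes, and genes of like length were lower in the SAH library. Relative to the 500 genes closest to it in length (their median), Dbp was 0.45 in excitatory, 0.28 in thalamic, 0.83 in inhibitory and -0.18 in oligodendrocyte nuclei. The same correction moved Per1 (14.7 kb) to -0.64 in excitatory, -0.46 in thalamic, -0.25 in inhibitory and -0.46 in striatal nuclei, so that of these only the excitatory class kept 1.5-fold. Nr1d1 (7.40 kb) went to -0.75 in excitatory and -0.38 in inhibitory nuclei. Per2 (43.3 kb) stayed at -1.24 in excitatory and -1.19 in striatal nuclei.

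The phase question was put as 1 number for each class: the mean log2 ratio of Per1, Per2, Per3, Dbp, Nr1d1 and Nr1d2, called the E-box genes, minus that of Arntl, Clock and Cry1. Cry1 is an E-box gene too and was put with Arntl because REV-ERB proteins also repress it. The genes of the first mean were 5.12 to 43.3 kb long, and those of the second were longer, 53.4 to 107 kb. The difference was not corrected for gene length, and what part length had in it was not tested. Relative to genes of like length, the genes of the first mean were between -1.24 and 0.45 in excitatory nuclei. Those of the second were between -0.19 and 0.29. In inhibitory nuclei the genes of the first mean were then between -0.38 and 0.83, and those of the second between -0.23 and 0.31. In both classes the correction moved every gene of the first mean up, each by more than any gene of the second. A corrected difference would thus be nearer to 0 in these classes, by an amount that was not computed. Without the correction the difference was below 0 in all 6 classes. It was -0.63 (-0.70 to -0.55) in excitatory, -0.53 (-0.72 to -0.35) in thalamic, -0.39 (-0.55 to -0.23) in inhibitory and -0.88 (-1.26 to -0.50) in striatal nuclei. It was -1.02 (-1.36 to -0.68) in oligodendrocyte and -0.72 (-1.21 to -0.23) in microglia nuclei. In nuclei thinned to 1000 UMIs the thalamic value was 0.01 (-0.91 to 0.92) and the inhibitory -0.13 (-0.61 to 0.36), both with wide intervals. Without Cry1, a choice made after the data were seen, it was between -1.01 and -0.30 over the 6 classes. The same sign was reached by different genes. In the neuronal classes the second mean was between 0.02 and 0.08 and the first between -0.79 and -0.37, while in oligodendrocyte nuclei the second was 0.79 and the first -0.24.

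**Figure D3:**
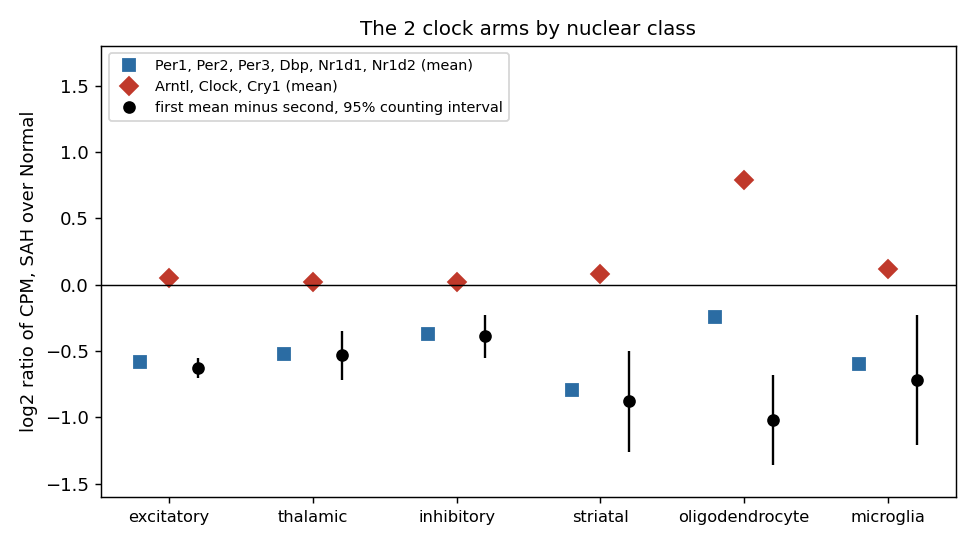
Mean log2 ratio of CPM, SAH over Normal (y axis), of the E-box genes (blue squares) and of Arntl, Clock and Cry1 (red diamonds) in each class, and the first minus the second (black, with its 95% counting interval). The red mean lies at 0.79 in oligodendrocyte nuclei and between 0.02 and 0.12 in the other classes.

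Since Per1 and Per2 answer to signals outside the clock, the difference was taken again without them, a choice made after the data were seen. It was -0.36 (-0.45 to -0.27) in excitatory, -0.37 in thalamic, -0.31 in inhibitory and -0.69 in striatal nuclei. Without Nr1d1 as well it was -0.10 (-0.18 to -0.01) in excitatory, -0.37 (-0.57 to -0.16) in thalamic, -0.14 (-0.33 to 0.04) in inhibitory and -0.41 (-0.80 to -0.02) in striatal nuclei. Most of the value in excitatory and inhibitory nuclei thus came from Per1, Per2 and Nr1d1, and less of it in thalamic and striatal nuclei. In oligodendrocyte nuclei it was -1.22 without Per1 and Per2 and -1.25 without all 3, and in microglia nuclei -1.11 and -1.15. The microglia values rest in part on Dbp, which had 13 and 10 UMIs there. In excitatory nuclei, the most deeply counted class, Dbp, Per3, Cry1 and Arntl had log2 ratios between -0.18 and 0.20, beside -1.36 for Per2 and -1.09 for Nr1d1. In thalamic and striatal nuclei the log2 ratios of all 6 genes of the first mean were below 0, from -0.94 to -0.19 and from -1.45 to -0.19. The intervals of thalamic Dbp and Nr1d1 and of striatal Per3, Dbp and Nr1d2 held 0, and striatal Nr1d1 had 17 and 7 UMIs. Relative to genes of like length, Dbp was 0.28 in thalamic and 0.27 in striatal nuclei. Thalamic Nr1d1 was then 0.03 and striatal Per3 0.06, while the other genes of the first mean stayed below 0 in both classes. Whether the clocks of the 2 pools stood at different phases could not be determined from 1 library and 1 time each.

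Per1, Per2 and Nr1d1 were read in subsets of the excitatory nuclei and in nuclei that passed no marker list, also chosen after the data were seen. The subsets share their counts with the excitatory class, so they are not a separate look at it. In excitatory nuclei with at least 5 UMIs of Cux2, a gene of upper cortical layers (328 Normal and 333 SAH nuclei), Per1 was -0.78 (-1.18 to -0.39), Per2 -1.61 (-1.95 to -1.28) and Nr1d1 -1.58 (-2.37 to -0.85). In those with at least 5 UMIs of Foxp2, a gene of deep layers (345 and 639 nuclei), Per1 was -0.76 (-1.14 to -0.37) and Per2 -1.12 (-1.45 to -0.79). Nr1d1 was -0.69 (-1.59 to 0.21) there on 22 and 24 UMIs. The nuclei that passed no marker list (2624 and 4305) had Per1 at -0.46, Per2 at -1.01 and Nr1d1 at -0.76. Per1, Per2 and Nr1d1 were below 0 in each of these groups, while Arntl lay between -0.23 and -0.05.

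**Figure D4:**
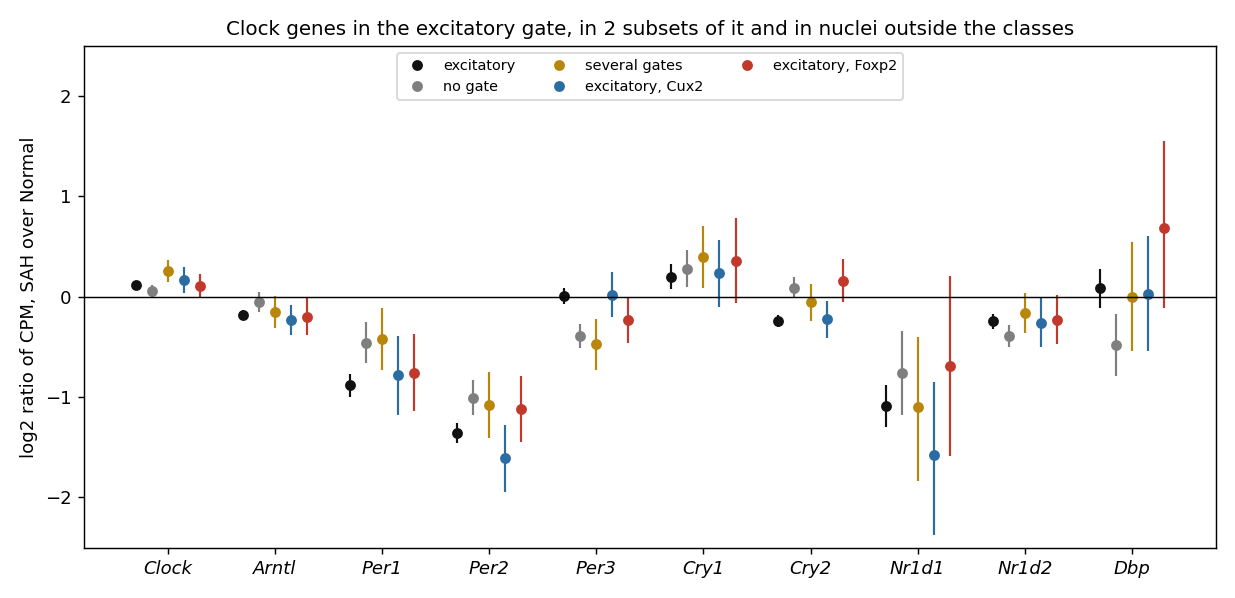
Log2 ratio of CPM, SAH over Normal (y axis), with 95% counting intervals, for each clock gene in all excitatory nuclei (black), in nuclei of no class (grey) and of several classes (ochre), and in excitatory nuclei with Cux2 (blue) or Foxp2 (red). Per2 lies between -1.61 and -1.01 in the 5 groups, and Clock between 0.06 and 0.26.

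Other genes that answer to neuronal activity or to glucocorticoid, as Per1 and Per2 do, were read beside them. Of 12 genes induced by neuronal activity and CREB, 11 were lower and 0 higher by 1.5-fold in excitatory nuclei, with a median log2 ratio of -1.59 against -0.11 for all genes, of which 17.4% were lower. Fos, an immediate early gene, was 6.15 CPM in Normal and 0.727 in SAH excitatory nuclei, a log2 ratio of -3.08 (-3.52 to -2.67). Arc, which acts at active synapses, was 17.8 and 2.65 CPM, or -2.75 (-2.98 to -2.53). In inhibitory nuclei 9 of the 11 countable genes were lower, with a median of -1.38, where 18.7% of all genes were. In thalamic nuclei 2 of 6 were lower (-0.36), against 16.1%, and in striatal nuclei 3 of 4 (-1.11), against 22.4%. Per1 and Per2 thus lay on the same side of 0 as this list in each neuronal class. So did the median of all genes, between -0.21 and -0.11.

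Of 10 glucocorticoid receptor targets, 9 were higher and 0 lower in oligodendrocyte nuclei, with a median log2 ratio of 1.55 against -0.09 for all genes, of which 14.2% were higher. The remaining target, Tsc22d3, went the other way, with 182 CPM in Normal and 142 in SAH, or -0.36 (-0.50 to -0.22), under 1.5-fold. Fkbp5, a brake on the receptor, was 63.3 CPM in Normal and 573 in SAH oligodendrocyte nuclei, or 3.18 (2.99 to 3.37), and Klf9 was 97.9 and 236 CPM, or 1.27 (1.11 to 1.44). In microglia nuclei 4 of 7 were higher, against 15.5% of all genes, with a median of 1.19, and Fkbp5 was 2.45 (2.31 to 2.60). Fkbp5 was higher in every neuronal class as well, between 0.98 and 1.34, where the median of the list was between 0.09 and 0.18. In excitatory nuclei 3 of 10 targets were higher and 1 lower, against 15.8% and 17.4% of all genes. The higher ones were 3 of 9 in inhibitory (9.99%), 2 of 6 in thalamic (10.7%) and 1 of 4 in striatal nuclei (6.68%), with 0 lower. Per1 lay on the same side of 0 as the glucocorticoid list in both glial classes, and as the activity list in the 4 neuronal classes. Per1 and Per2 lay opposite the median of the glucocorticoid list in the 4 neuronal classes. Per1 also lay opposite the median of the activity list in oligodendrocyte nuclei. In microglia nuclei Per1 lay on the side of both lists, and the activity list rested on 3 genes there. Per2 did not lie with the glucocorticoid list in glia, at -0.22 in oligodendrocyte and, on few UMIs, -0.47 in microglia nuclei, and both intervals held 0. The activity list had a median of -0.51 in oligodendrocyte nuclei (1 higher and 3 lower of 7) and 0.68 in microglia nuclei (2 higher and 1 lower of 3). What part hormone, neuronal activity or the clock had in Per1 and Per2 was not tested.

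**Figure D5:**
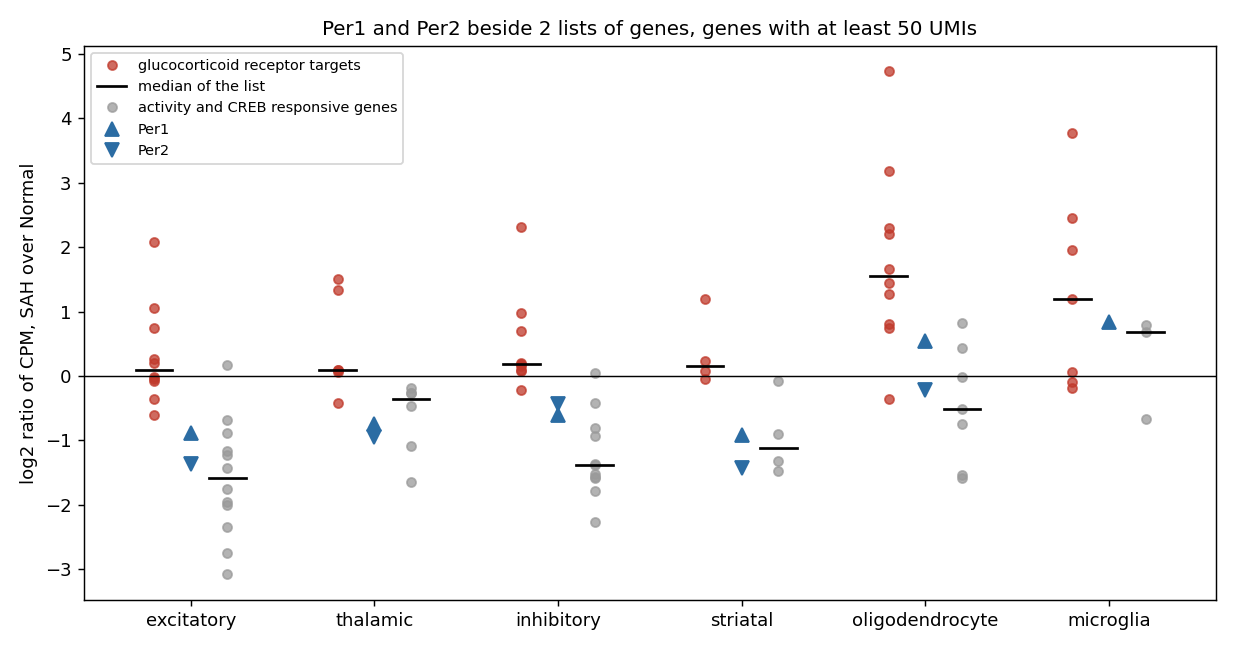
Log2 ratio of CPM, SAH over Normal (y axis), by class, of each glucocorticoid receptor target (red points) and each activity and CREB responsive gene (grey points) with at least 50 UMIs, with the median of the list as a bar, beside Per1 (triangle up) and Per2 (triangle down). The red median is 1.55 in oligodendrocyte nuclei, where Per1 is 0.54, and the grey median -1.59 in excitatory nuclei, where Per1 is -0.88 and Per2 -1.36.

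Further genes of the clock were taken as a list of 20. In excitatory nuclei 1 of the 19 countable genes was higher and 2 lower, with a median log2 ratio of -0.08, where 15.8% and 17.4% of all genes were. In oligodendrocyte nuclei 2 of 16 were higher and 1 lower (0.04), against 14.2% and 19.1%. None was higher in the other classes. The lower ones were 5 of 18 in thalamic nuclei (16.1% of all genes), 2 of 18 in inhibitory (18.7%), 5 of 13 in striatal (22.4%) and 3 of 12 in microglia nuclei (15.6%). Hlf, which with Tef and Dbp makes the family of factors that bind the D-box, was the gene higher in excitatory nuclei, at 2655 UMIs in Normal and 6453 in SAH, a log2 ratio of 0.75 (0.68 to 0.81). Tef was 0.05 in excitatory but 0.70 (0.52 to 0.88) in oligodendrocyte nuclei and -0.66 (-1.10 to -0.21) in microglia nuclei. Hlf thus stood apart from Dbp and Tef in excitatory nuclei, and Tef and Dbp lay on opposite sides of 0 in oligodendrocyte nuclei. Nfil3, which represses the D-box, was higher in oligodendrocyte nuclei on 12 and 52 UMIs, 1.00 (0.07 to 2.04). Bhlhe40, an E-box repressor that is also induced by activity, was 19.1 CPM and 9.11 in excitatory nuclei, or -1.07 (-1.21 to -0.92), and -0.64 (-1.08 to -0.20) in thalamic nuclei. Its relative Bhlhe41 was -0.21 (-0.36 to -0.05) in excitatory and -0.65 (-1.01 to -0.29) in oligodendrocyte nuclei. Csnk1e, the kinase that marks PER proteins for breakdown, was below 0 in all 6 classes, from -0.54 in oligodendrocyte to -1.51 in striatal nuclei. The partner Npas2 was -0.01 (-0.04 to 0.03) in excitatory nuclei. Rora, which activates Arntl, was above 0 in all 6 classes, from 0.08 in thalamic to 0.53 (0.46 to 0.60) in striatal nuclei. It was 0.32 (0.19 to 0.45) in oligodendrocyte nuclei and 0.32 (0.30 to 0.33) in excitatory nuclei, where Arntl was -0.18. Of the cold-inducible genes, whose transcripts follow body temperature, Cirbp was between -0.34 and 0.13 in the 6 classes and Rbm3 between -0.91 and -0.18.

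Other genes were ranked by how closely their ratios followed those of a clock gene over the 6 classes, among 6529 genes with at least 50 UMIs in each class. Of the 7 clock genes with that many, Cry1 had the highest median ratio (0.20) and Per1 the lowest (-0.67). The nearest to Cry1 were Hecw2, Ctnna2 and Setbp1, with mean absolute differences of 0.0620, 0.0783 and 0.0932 in log2 ratio. The nearest to Per1 were Tigd2 (0.141), Sinhcaf (0.166) and Ift43 (0.168), less close than the neighbours of Cry1. No other clock gene could be among them by the rule used.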

How the data were processed

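Nuclei were isolated from frozen tissue and prepared with a 10x Genomics 3' kit. The authors aligned reads to mm10 with introns counted and deposited UMI counts per gene and nucleus without normalization. The file headers name Cell Ranger 6.1.2 and the submitters' processing notes 5.0.0. Nuclei with 300 to 7000 genes, under 10% mitochondrial and 3% haemoglobin UMIs and under 100000 UMIs were kept. A class needed 3 detected markers and a summed share of UMIs per 10000 above a cut (excitatory 6, thalamic 25, inhibitory 40, striatal 24, oligodendrocyte 40, microglia 30) that was set after the data were seen. Nuclei that passed several lists (711 Normal, 955 SAH) were left out as possible doublets, and no doublet caller was run. Of the nuclei kept, 72.5% and 71.1% were in 1 class. Within 20% of the cut were between 0.471% and 14.8% of a class's nuclei. Median UMIs by class were between 1348 and 11520 in Normal and between 1781 and 13332 in SAH. No nucleus held over 18 UMIs of a clock gene.

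UMIs were summed by class and library with Python 3.11.15, numpy 2.4.6 and scipy 1.17.1. On simulated counts for excitatory nuclei (17708 genes), 95.6% of intervals held the true ratio and 98.5% of 200 genes changed 2-fold were called. For microglia nuclei (9125 genes) these were 95.8% and 93.0%. Gene lengths and overlaps came from GENCODE M21, which matched 99.8% of genes. Genes named were the 10 clock genes, members of the lists and the 3 genes nearest to the clock genes of highest and lowest median ratio. The clock genes, lists and rules were chosen with earlier results of these data known. The alternatives were other filters, cuts, weights, scalings, minimums and folds. The recordings, staining and human data of the study were not analysed here.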

Additional observations from a re-analysis of the deposited data

Results flagged for a closer look

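For 3 clock genes the counting interval lay above 0 in one class of nuclei and below 0 in another, an untested difference of direction between classes from 1 library each. Per1 was 0.83 in microglia and -0.92 in striatal nuclei, a difference of 1.75 (95% counting interval 0.90 to 2.60) in log2 ratio. Arntl was 1.05 in oligodendrocyte and -0.22 in inhibitory nuclei, a difference of 1.27 (0.89 to 1.64). Cry2 was 0.61 in oligodendrocyte and -0.24 in excitatory nuclei, a difference of 0.84 (0.60 to 1.09). The classes compared were those with the highest and lowest ratio of each gene, chosen for it, and no difference was tested over replicates. How many of all genes met the same rule was not counted, so the 3 genes have no background beside them.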

How the results depend on the processing

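No paired analysis was possible because each condition had 1 library. All 162 values of the 18 called pairs of gene and class kept their direction under 9 alternatives, and of all 537 log2 ratios 481 stayed within the counting interval. The pairs were called in these same counts, so a kept direction is a weak check. The count of 14 lower pairs became 5 with each nucleus thinned to 1000 UMIs, 8 centred on genes of like length, 7 with a minimum of 200 UMIs and 4 at 2-fold, where the 4 higher pairs became 1. Centred on genes of like length, the 4 higher pairs became 6. Shares of all genes are given for the main setting only, so these counts have no background beside them. Thinning left 34 of 60 pairs with 50 UMIs, and a minimum of 200 UMIs left 38. The difference between clock arms stayed below 0 in 39 of 40 values, none of which was centred on genes of like length. Thinned, it was -0.78 in excitatory and -0.13 in inhibitory nuclei, and in thalamic nuclei it turned to 0.01 (-0.91 to 0.92), where Nr1d1 had 1 and 4 UMIs. Thinned striatal and microglia nuclei gave no value, as a gene had no UMIs. With each nucleus weighted equally it was -0.71 in excitatory nuclei. Added after seeing the data, leaving out Cry1 gave -0.55 and leaving out Per1 and Per2 gave -0.36 in excitatory nuclei. Leaving out Nr1d1 with Per1 and Per2 gave -0.10 in excitatory, -0.37 in thalamic, -0.14 in inhibitory and -0.41 in striatal nuclei. Nuclei with Prox1 in the excitatory gate (7 and 13) were too few to use. Depth limited Nr1d1 and Dbp most, with 586 and 579 UMIs in all Normal classes.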
